A study of Mus musculus with 2 samples.

Results

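The regions described here are 992 annotated introns that stayed inside an exon in at least 5% of the informative long reads from mouse gastrocnemius, the large calf muscle. They were found from the deposited transcript models and their read counts. An intron of an annotated transcript was a candidate where it lay wholly inside an exon of another model of the same gene with at least 1 other intron. Of 286659 introns of annotated transcripts, 17173 lay inside such an exon. At least 20 reads, pooled over both libraries, spliced or retained 5920 of these, and 992 of the 5920 (16.8%), in 730 genes, were retained by at least 5% of those reads. The introns were chosen by their retained share in the pooled reads, so it is given as a description with no test.

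The libraries were biological replicates 1 and 2 of a single group, females of the hybrid strain B6CASTF1/J at 14 days after birth, with no treatment in the labels. Each library started from 2 µg of RNA. The labels name several females for replicate 1 and a single one for replicate 2. Both carry the same donor identifier, and the labels do not settle whether they come from different animals. Replicate 1 held 1316937 reads and replicate 2 held 1204188. Full splice chains, the models used here, took 1088160 and 862044 of them. The markers of muscle fibres summed to 340594 reads in replicate 1 and 201405 in replicate 2, those of fibroblasts to 9878 and 3750, of red cells to 1800 and 1397, of Schwann cells to 710 and 2697, of endothelium to 99 and 30, and of fat to 9 and 21. Of 3 markers of nerve cell bodies, 1 was detected, with a single read. In bulk tissue fewer cells of a type and less RNA per cell cannot be told apart.

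Most introns are removed from a transcript before it leaves the nucleus. An intron that stays can hold a stop codon in the reading frame, and transcripts with a stop well before their last exon junction are often degraded by nonsense-mediated decay or held in the nucleus. Short, GC-rich introns with weak splice sites are known to be retained more often in mammals, and genes of splicing factors are known for introns whose retention is regulated. A different case is an exon that is complete in the usual transcript and from which a rare annotated transcript cuts a piece. Both cases meet the rule used here.

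Sequences are shown for 3 kinds of intron, all chosen after their values were seen, to make visible what a read gains by keeping them. They are reference sequence of GRCm38 (mm10) read from GENCODE M21 transcripts on the strand of the gene, 5′ to 3′, and the CAST allele of the hybrid was not read. The first kind is a gap of a single base that the annotation places in the antizyme genes Oaz1 and Oaz2, where translation is known to shift its frame. The capital letter is the base the annotation leaves out, with 25 bases on each side, at chr10:80828270-80828320 and chr9:65686247-65686297, both on the plus strand. Together with the bases after it, that T forms the stop codon TGA of the unshifted frame.
Oaz1: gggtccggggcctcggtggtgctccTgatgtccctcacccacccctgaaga
Oaz2: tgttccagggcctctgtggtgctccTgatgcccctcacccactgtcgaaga

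The second kind keeps the reading frame open, so that a retaining transcript codes for a longer protein. Capitals mark the GT and AG at the intron's ends. The introns lie in Map7d1, a microtubule-associated protein (chr4:126237060-126237155, minus strand), in the kinase gene Csnk1g2 (chr10:80638080-80638160, plus strand), in the splicing regulator gene Hnrnpl (chr7:28818533-28818643, plus strand) and in Cdkn1c, an inhibitor of the cell cycle (chr7:143460027-143460098, minus strand).
Map7d1: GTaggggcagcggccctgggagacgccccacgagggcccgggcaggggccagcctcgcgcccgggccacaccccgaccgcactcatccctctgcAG
Csnk1g2: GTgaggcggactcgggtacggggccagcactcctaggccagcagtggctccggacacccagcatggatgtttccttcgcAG
Hnrnpl: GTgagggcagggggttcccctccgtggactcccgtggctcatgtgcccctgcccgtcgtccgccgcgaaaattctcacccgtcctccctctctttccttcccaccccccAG
Cdkn1c: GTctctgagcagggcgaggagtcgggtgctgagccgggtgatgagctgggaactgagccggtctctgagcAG

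The third kind brings in a stop codon, which is in capitals. These introns lie in Tmem52, a transmembrane protein (chr4:155469347-155469461, plus strand), in Elob, which codes for elongin B (chr17:23828979-23829082, minus strand), in Mapk12, the p38 gamma kinase that is abundant in muscle (chr15:89140258-89140347, minus strand), and in Nexn, an actin-binding protein of the Z-disc (chr3:152237580-152237664, minus strand).
Tmem52: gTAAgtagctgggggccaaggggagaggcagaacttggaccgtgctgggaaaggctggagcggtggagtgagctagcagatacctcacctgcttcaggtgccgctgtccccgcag
Elob: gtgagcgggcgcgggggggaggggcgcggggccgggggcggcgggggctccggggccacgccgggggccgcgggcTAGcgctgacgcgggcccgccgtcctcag
Mapk12: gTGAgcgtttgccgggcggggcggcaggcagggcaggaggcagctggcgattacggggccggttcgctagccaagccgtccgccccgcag
Nexn: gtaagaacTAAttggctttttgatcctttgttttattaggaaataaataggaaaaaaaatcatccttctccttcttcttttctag
The GC content was 88.5% in Elob, 78.1% in Map7d1 and 74.4% in Mapk12, against 28.2% in Nexn. In Tmem52 and Mapk12 the stop lies after 1 base of intron, inside the donor site itself.

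Among the 992 introns the retained share was mostly close to the 5% limit or close to 100%, with fewer introns between. The lower end is set by the rule. Of the 5920 tested introns 4928 lay under 5%, with a median share of 0.0496%. Of the 992 introns, 470 in 359 genes were retained by 5 to under 50% of informative reads, with a median share of 9.09% and a median of 4 retaining reads. Another 209 in 169 genes were retained by 50 to under 100%, with a median of 92.4%. The remaining 313 had no splicing read at all: 293 of at least 30 bases and 20 shorter gaps. The limits of 50% and 30 bases were chosen after the shares were seen. For 522 introns, then, more informative reads kept the intron than spliced exactly it, or as many. Reads that splice another, overlapping intron do not enter the retained share of any class. They were present at 524 of the 992 introns, and with them in the denominator 904 of the 992 stayed at 5% or more. Among the 522 they were present at 248, and with them in the denominator 467 of the 522 were still retained by at least 50%.

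**Figure D1:**
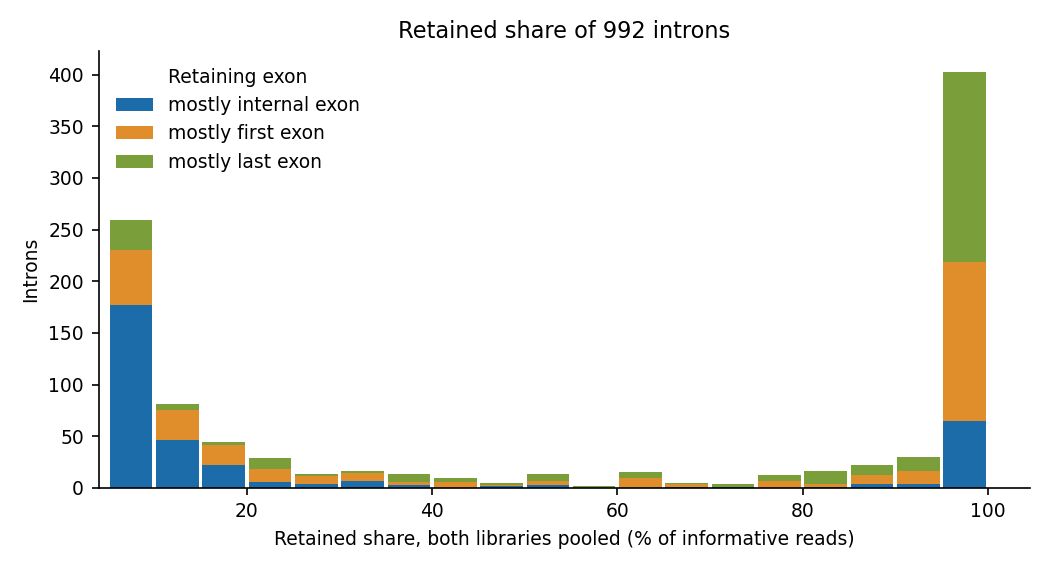
Number of introns (y axis) by the share of informative reads that retain them, both libraries pooled (x axis, percent, in bins of 5 points). Colours give the exon of the retaining models that held most of the retaining reads. The introns pile up at both ends, of which the lower is cut at 5% by the rule. Internal exons make up 267 of the 470 introns under 50%.

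Where the retaining exon lay differed between these classes. Of the 470 introns under 50%, 267 were retained mostly in an internal exon, 137 in a first exon and 66 in a last exon. Of the 209 retained by most reads, 29 were internal, 80 first and 100 last, and of the 293 never spliced, 41, 116 and 136. The class of the models differed as well. NIC models, which are unannotated chains of known splice sites, gave most retaining reads of 246 introns under 50% (52.3%), and models with an annotated chain (class Known) those of 215. Annotated chains gave most retaining reads for 192 of 209 introns retained by most reads (91.9%) and 266 of 293 never spliced (90.8%). The authors' assignment rests on the intron chain, so the outer ends of a first or last exon are those of the annotation and a read may stop short of them.

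The shortest regions were gaps rather than introns. The 20 gaps under 30 bases lay in 16 genes, and 15 of them were in a coding sequence. Oaz1 had 1756 retaining reads in replicate 1 and 2429 in replicate 2, and Oaz2 had 594 and 367, with no read that left the gap out in either library. The 0 of 1756 and 0 of 2429 reads of Oaz1 allow a spliced share of up to 0.171% and 0.124%. For Oaz1, 4175 of the 4185 retaining reads were of the NIC class, since the annotated coding transcript lacks the base. Gaps of a single base also stood in Pitpna, a phosphatidylinositol transfer protein (210 reads in replicate 1 and 142 in replicate 2), in the NAD kinase gene Nadk2 (55 and 20), in 1600014C10Rik (35 and 25), in Acbd4 (27 and 10) and in Mier2 (22 and 5). A gap of 21 bases lay at the start of Srsf5, a splicing factor of the SR family (36 and 34 reads). Every read at each of these gaps kept the bases in both libraries.

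Among the 293 longer introns without a splicing read, several belonged to the most abundant transcripts. H19, an imprinted long noncoding RNA of fetal and newborn muscle, kept a 191-base annotated intron in 1969 reads of replicate 1 and 1211 of replicate 2. Its 491-base intron was kept in 1968 and 1209 reads. Nearly all of these reads held both H19 introns (99.9% for the shorter one). Ndufa4, a subunit of cytochrome c oxidase, kept an 88-base intron of its 5′ untranslated region in 1012 reads in replicate 1 and 1837 in replicate 2. Park7, a protective redox protein, kept 69 bases at the end of its coding sequence in 694 and 1096 reads.

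Inside coding sequence, pieces of 37 bases in the chaperone gene Hsp90ab1 (790 reads in replicate 1 and 295 in replicate 2), 33 bases in Sh3bgr (508 and 545) and 207 bases in Maged2 (498 and 537) were likewise in every informative read. In Hsp90ab1 the annotated removal would shift the frame, and in Sh3bgr and Maged2 it would keep it. In these 293 introns the most read annotated retaining transcript was protein-coding in 272 cases (92.8%). Crat, the carnitine acetyltransferase, had 676 and 212 retaining reads at a 197-base intron of its 5′ untranslated region. In the 3′ untranslated region, 3908 bases of Hnrnpu, a nuclear RNA-binding protein, were kept in 167 and 69 reads, and 3007 bases of the Z-disc gene Synpo2 in 89 and 36, while 133 pooled reads spliced another intron across the Synpo2 stretch. No read of a full splice chain removed exactly any of these stretches.

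Of the 209 introns retained by most reads, 120 were retained by at least 90% and 51 by under 80%. In Actn2, which codes for the Z-disc protein alpha-actinin 2, 3324 of 3341 reads of replicate 1 (99.5%) and 872 of 877 of replicate 2 (99.4%) kept a 48-base intron of the 5′ untranslated region. Its ends read CC and AT, not those of a usual intron. Bsg, a partner of lactate transporters, kept a 115-base intron in 971 of 972 and 938 of 939 reads, each library holding a single read that spliced it. Cdkn1c kept the 72-base in-frame intron printed above in 798 of 802 reads (99.5%) in replicate 1 and 727 of 734 (99.0%) in replicate 2. The shares of these 3 introns differed by less than 1 percentage point between the libraries.

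Other introns of this class lay in genes of mitochondria and muscle fibres. Uqcrq, a subunit of respiratory complex III, kept an 85-base intron of its 5′ untranslated region in 882 of 943 reads of replicate 1 (93.5%) and 1794 of 1952 of replicate 2 (91.9%). Cryab, the small heat shock protein alpha-B crystallin, kept 90 bases in 527 of 537 and 650 of 664 reads. Sucla2, a subunit of succinyl-CoA ligase, kept 199 bases in 913 of 916 and 526 of 529 reads, and Nipsnap2 kept 399 bases in 1219 of 1232 and 705 of 711. Mb, which codes for myoglobin, kept an 80-base first intron in 242 of 256 reads of replicate 1 (94.5%) and 189 of 214 of replicate 2 (88.3%). The glucose transporter gene Slc2a4 kept 104 bases in 193 of 195 and 49 of 51 reads. All of these except Sucla2 and Nipsnap2 lay mostly in the first exon. With internal retaining exons only, the share was 64.2% for Cryab and 0% for Uqcrq, Mb and Slc2a4.

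Of the 470 introns that most reads spliced, 374 (79.6%) lay between coding exons of the splicing transcript. Another 65 lay in its 5′ untranslated region, 24 in its 3′ untranslated region and 7 in noncoding transcripts. Reads were few: 263 of the 470 had under 5 retaining reads, and 100 had at least 10. Both libraries held a retaining read for 315 (67.0%).

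Map7d1 had the most retaining reads among them. Replicate 1 retained its 96-base intron in 182 of 487 reads (37.4%, 95% Wilson interval 33.2 to 41.8%) and replicate 2 in 68 of 211 (32.2%, 26.3 to 38.8%). The intervals overlapped (difference 5.14 points, Fisher's exact test, two-sided, adjusted p = 1). NIC chains gave 211 of its 250 retaining reads, and retaining reads spliced a mean of 14.8 other introns, so the intron was kept in otherwise spliced transcripts. Csnk1g2 kept its 81-base intron in 22 of 146 reads of replicate 1 (15.1%, 10.2 to 21.8%) and 8 of 70 of replicate 2 (11.4%, 5.91 to 20.96%). Hnrnpl kept its 111-base intron in 10 of 47 (21.3%, 11.99 to 34.9%) and 5 of 44 (11.4%, 4.95 to 23.98%). In each of these 3 genes the intron's length is a multiple of 3 and holds no stop in frame.

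Tmem52 had 2 introns of this class that do not overlap. Its 115-base intron, whose second base starts a stop codon, was retained in 145 of 419 reads of replicate 1 (34.6%, 30.2 to 39.3%) and 104 of 460 of replicate 2 (22.6%, 19.02 to 26.6%). The intervals of the libraries did not overlap at this intron, but the difference of 11.998 points did not pass the adjusted test (Fisher's exact test, adjusted p = 0.114). The 92-base first intron was retained in 93 of 471 (19.7%) and 93 of 515 reads (18.1%).

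A ribosomal protein gene and a chaperone gene kept short first introns. Rpl8 kept a 193-base intron before its start codon in 47 of 213 reads of replicate 1 (22.1%) and 73 of 309 of replicate 2 (23.6%). Hspa5, the main chaperone of the endoplasmic reticulum, kept an 82-base intron in 78 of 336 (23.2%) and 44 of 206 (21.4%). In both genes the libraries' intervals overlapped. All the retaining reads lay in first exons, where the ends of the reads are not known from the files.

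In last exons, Hras, a small GTPase, kept 147 bases of its 3′ untranslated region in 75 of 157 reads of replicate 1 (47.8%) and 81 of 172 of replicate 2 (47.1%). Ptov1 kept 184 bases in 76 of 221 (34.4%) and 50 of 134 (37.3%). Nexn kept the 85-base intron printed above in 51 of 279 reads (18.3%) and 35 of 143 (24.5%), and 81 of these 86 reads were of NIC chains. The libraries again overlapped in all 3.

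**Figure D2:**
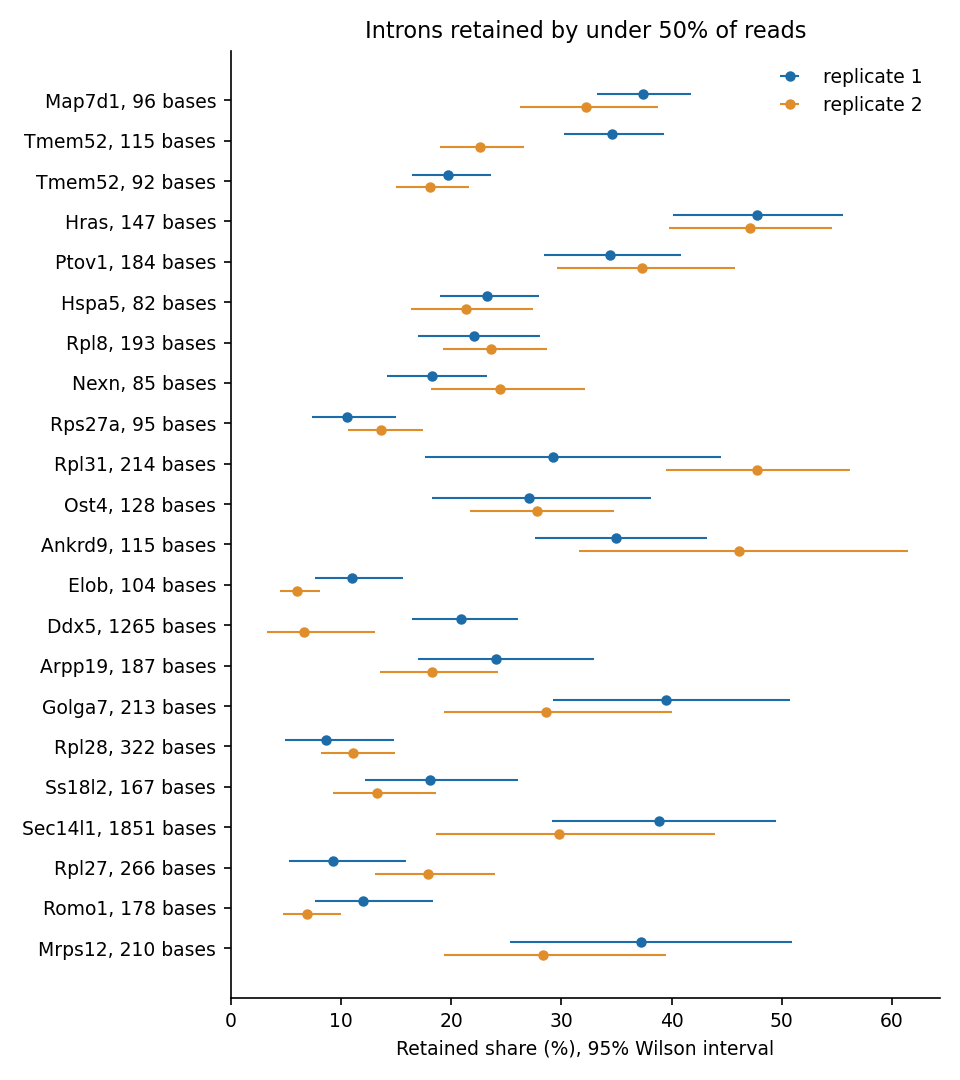
Retained share in percent (x axis) of 22 introns retained by under 50% of reads, among those with the most retaining reads, leaving out overlapping introns, chromosome 18 and introns not reported here. Points are the share in each library and bars 95% Wilson intervals. The intervals of the libraries overlap in most rows, and stand apart at the 115-base intron of Tmem52 and at Ddx5.

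Values near the 5% limit show how fine the choice was. Just inside it, with at least 100 reads, lay Eprs, an aminoacyl-tRNA synthetase (12 of 239 reads, 5.02%), and Maged1 (7 of 131, 5.34%). Just outside lay Dnase1l1 (8 of 164, 4.88%), Sra1 (6 of 125, 4.80%) and a 69-base intron of Mapk12 (7 of 147, 4.76%). Each of these 5 lies within 1 read of the limit.

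Most coding introns retained by under 50% of reads held a stop in the reading frame of the splicing transcript. The sequence could be read for 273 of the 374 coding introns under 50%, and 230 of the 273 (84.2%) held a stop codon in the frame of the splicing transcript, at a median of 31 bases into the intron. Another 27 held no stop but would shift the frame, and 16 (5.86%) kept it open. Stops were not counted in the 4928 tested introns under 5%, so the 84.2% is not shown to be particular to retained introns. For 202 of the 230 (87.8%) the stop lay over 50 bases before the last exon junction of the splicing transcript. That is the usual distance beyond which nonsense-mediated decay is known to act. Of the introns retained by most reads, 46 of 69 (66.7%) held a stop and 13 of the 46 had it over 50 bases before the last junction. Of those never spliced, 26 of 60 (43.3%) held a stop and 21 (35.0%) kept the frame. Here that frame comes from an annotated transcript whose splice of the intron no read used. The retaining coding model placed 38 of the 293 at the end of its coding sequence and 96 beyond it. These counts were 40 and 53 for the 209 retained by most reads, and 27 and 20 for the 470 under 50%. A stop there can be the usual one of the retaining transcript or follow it. Such stops were not counted apart, so these shares do not compare what retention brings in. The counts of stops and frames take the rest of the splicing transcript as annotated and use the reference allele. Of the 470 introns under 50%, 189 had no internal retaining read. A retaining model that ends in the exon has no junction after the stop.

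**Figure D3:**
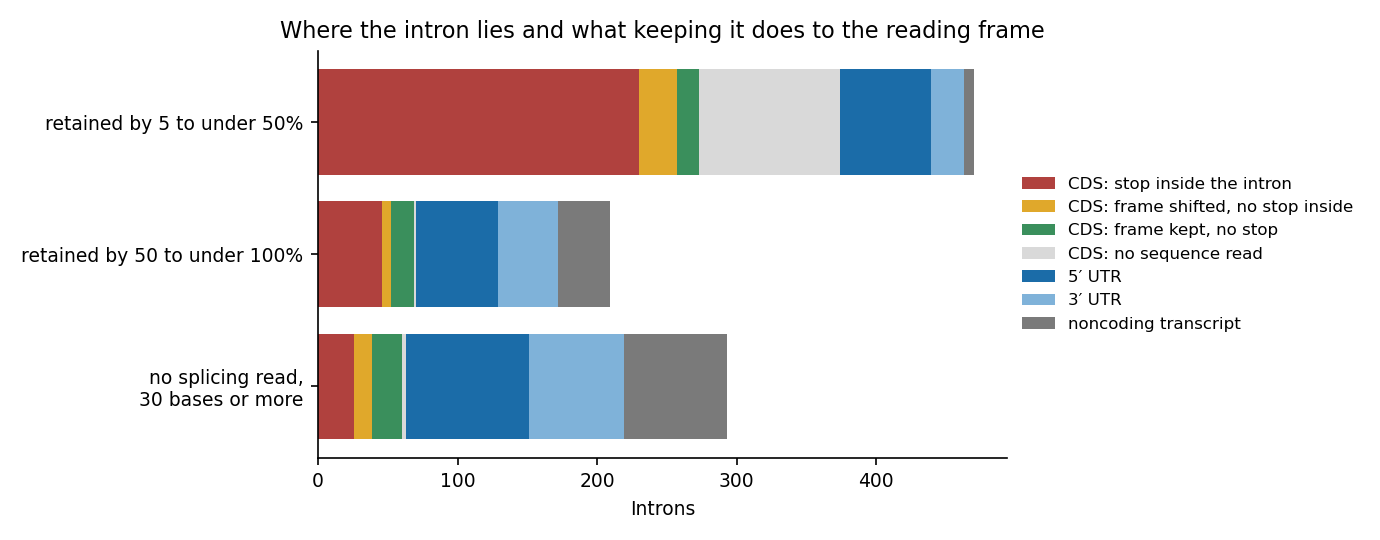
Number of introns (x axis) in each of 3 classes of retained share (rows), split by where the splicing transcript places the intron. Coding introns are split by what keeping them does to the frame of that transcript, which no read used in the never-spliced class. A stop inside the intron is the largest part among introns retained by under 50% of reads, 230 of 470. Untranslated regions and noncoding transcripts make up most of the other classes.

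Some reads kept more than a single intron. At least 50% of the retaining reads held another retained intron in 188 of the 470 introns under 50% (40%), 22 of the 209 retained by most reads (10.5%) and 39 of the 293 never spliced (13.3%). Among the 267 internal introns under 50% the count was 138 (51.7%). Dgat1, an enzyme of triglyceride synthesis, had 12 introns in the set, and the same 2 reads of replicate 1 gave all of them, while replicate 2 had none among 14 or 15 reads at each. These 12 are therefore a single observation. Rsrp1, an arginine- and serine-rich protein, had 8 introns, kept mostly in internal exons, retained in 133 to 162 reads of replicate 1 and 31 to 37 of replicate 2. Dlk1, an imprinted membrane protein of growing muscle, had 6 overlapping introns kept in 55 reads of replicate 1 and 89 of replicate 2. Since they overlap, these 6 are not separate observations. The values of Rsrp1 and Dlk1 are counts of retaining reads, not shares, and do not compare retention between the libraries. Counting 1 intron for each overlapping set left 879 of the 992.

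Among the gene groups listed, splicing factors and RNA-binding proteins had 39 of 163 tested introns (23.9%) in 23 genes, beside 992 of 5920 (16.8%) over all genes. The share was higher in genes known for regulated retention (48.8%), selenoproteins and antioxidants (28.0%) and long noncoding RNAs (26.3%), all given below. Of the 39 introns of splicing factors and RNA-binding proteins, 29 were retained by under 50% of reads (17.8% of those tested, beside 7.94% over all genes). The median retained share of the 39 was 17.4%, beside 62.8% over all 992. Ddx5, an RNA helicase of splicing, kept a 1265-base intron in 57 of 273 reads of replicate 1 (20.9%, 16.5 to 26.1%) and 7 of 105 of replicate 2 (6.67%, 3.27 to 13.1%), with a stop 2 bases into it. The intervals did not overlap, and the difference of 14.2 points had an adjusted p of 0.561 by Fisher's exact test. Srsf5 kept a 1229-base intron in 17 of 38 reads of replicate 1 and 7 of 38 of replicate 2. Srpk3, the muscle kinase of SR proteins, kept 79 bases in 18 of 224 (8.04%) and 15 of 229 reads (6.55%).

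The kinase gene Clk4 kept 2 neighbouring introns in the same 5 of 20 reads of replicate 1 and in 0 of 7 of replicate 2. Srsf1, an SR protein, kept 196 bases in 3 of 14 and 1 of 11 reads, and Srsf7 kept 874 bases in 3 of 15 and 2 of 26. In the 3′ untranslated region of Srsf2, another SR protein, a 502-base intron was kept in 61 of 78 reads of replicate 1 (78.2%) and 49 of 58 of replicate 2 (84.5%). Of the 39 introns of this group, 19 held a stop in the reading frame.

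The genes known for regulated intron retention in other cells had 20 of 41 tested introns among the members, in 10 genes, with 14 under 50% and a median share of 17.95%. This list overlaps that of splicing factors. Mat2a, which makes S-adenosylmethionine and is known in human cells for a regulated last intron, kept a 585-base last intron in 28 of 422 reads of replicate 1 (6.64%) and 5 of 153 of replicate 2 (3.27%). A 1017-base stretch next to it stayed in 422 of 422 and 152 of 153 reads. Lmna, the gene of nuclear lamins A and C, kept a 245-base intron in 1 of 159 reads of replicate 1 (0.629%) and 13 of 97 of replicate 2 (13.4%). Its 705-base intron was kept in 2 of 155 and 14 of 96 reads, mostly the same reads. Apoe, an apolipoprotein, kept 386 bases in all 130 and 117 reads.

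Genes of contraction had few members, and most reads kept those. Of 133 tested introns of sarcomere genes 7 (5.26%) were members, in 4 genes, and none was retained by under 50%. Besides Actn2, Cryab and Synpo2, a 156-base intron of Ttn, the giant spring protein titin, was kept in 40 of 40 reads of replicate 1 and 19 of 19 of replicate 2. Calcium handling had 4 of 65 (6.15%). Calmodulin gene Calm3 kept 1019 bases of its 3′ untranslated region in all 351 and 234 reads, the sodium pump regulator Fxyd1 152 bases in 8 of 32 and 11 of 87, the junction protein gene Jph2 100 bases in 46 of 47 and 3 of 3, and Camk2b 30 bases in all 45 and 15 reads. Only that of Fxyd1 was retained by under 50% of reads among these 4.

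Energy metabolism was mixed. Glycolysis, glycogen and creatine genes had 6 of 81 tested introns (7.41%). Gapdh, the glycolytic dehydrogenase, kept a 1834-base intron in 1 of 19 and 1 of 20 reads. Adenylate kinase Ak1 kept 365 bases in 2 of 12 and 0 of 9 reads, but with incomplete splice matches added, replicate 1 had 50 retaining and 10 splicing reads. The branching enzyme gene Gbe1 kept 61 bases in all 85 and 35 reads, and hexokinase Hk2 654 bases in all 33 and 6. Genes of oxidative phosphorylation had 15 of 117 (12.8%) in 10 genes, 3 of them retained by under 50%. Besides Ndufa4, Uqcrq and Sucla2, the complex I gene Ndufb2 kept 877 bases in all 228 and 483 reads and the outer membrane channel gene Vdac2 133 bases in all 336 and 283.

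Ribosomal proteins and translation factors had 22 of 203 tested introns (10.8%), 12 under 50% and none of those in an internal exon. The initiation factor genes Eif4g2 (380 and 191 reads) and Eif2s2 (318 and 298) and the ribosomal protein gene Rpl29 (85 and 139) had introns kept in every read. Selenoproteins and antioxidants had 7 of 25. Gpx1, a glutathione peroxidase, kept 104 bases in all 64 and 70 reads, thioredoxin 2 (Txn2) 468 bases in 384 of 392 and 352 of 362, the methionine sulfoxide reductase gene Msrb1 372 bases in 2 of 29 and 4 of 45, and superoxide dismutase Sod1 1850 bases in 2 of 14 and 3 of 26. Proteolysis had 3 of 70: Gabarapl1 of autophagy (all 25 and 7 reads), the proteasome gene Psmd11 (7 of 102 and 2 of 65) and the autophagy kinase Ulk1 (2 of 20 and 0 of 3).

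Matrix genes had 6 of 48, all retained by at least 50%, among them Sparc (473 of 474 and 262 of 263), the collagen-folding enzyme P4hb (all 423 and 174), Bgn (all 136 and 53), the metalloprotease Mmp2 (90 of 101 and 59 of 64) and fibronectin, Fn1 (27 of 27, with no informative read in replicate 2). The reads of fibroblast markers were more numerous in replicate 1, as given above, and their part in these values was not tested. Long noncoding RNAs had 5 of 19 in 3 genes: besides H19, the small RNA host gene Gas5 kept 2 introns in the same 1 of 4 and 1 of 16 reads and Snhg20 kept 209 bases in all 11 and 11.

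Introns with a donor of the minor U12 type, here a first stretch of ATATCC or GTATCC, were 3. Pcyt2, an enzyme of phosphatidylethanolamine synthesis, kept its 379-base intron in 7 of 76 reads of replicate 1 and 0 of 44 of replicate 2, which allows up to 6.82%. Pja1, a ubiquitin ligase, had 2 overlapping ones, of which the 540-base intron was kept in 32 of 39 and 15 of 26 reads. The longest members were an 8683-base intron of Tmbim1 (2 of 18 and 3 of 8 reads), a 4606-base intron of the deacetylase gene Hdac1 (4 of 20 and 0 of 8) and that of Hnrnpu.

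Between the libraries no member passed the rule of an adjusted p under 0.05 and at least 10 percentage points. Fisher's exact test, two-sided, was run on all 5920 introns with Benjamini-Hochberg adjustment, and 0 of them (0%) were called. A chi-square test in its place called 1, the 245-base intron of Lmna. At an unadjusted p under 0.05 there were 49 (0.828%), of which 31 were members (3.13% of 992), 16 higher in replicate 1 (beside 0.439% of all tested in that direction) and 15 in replicate 2 (0.389%). A single intron, 98 bases of Acta1 that are no member, passed on the adjusted p alone (0.0169% of those tested), with 0.115% retained in replicate 1 and 0.0120% in replicate 2. The other tested introns included 2308 with no retaining read, which could not differ. Of the 992 members, the 313 with no splicing read could not differ either. The smallest adjusted p of a member was 0.0549, for the 245-base intron of Lmna, with a difference, replicate 1 minus replicate 2, of -12.8 points. Fermt2, an integrin activator, kept a 342-base intron in 23 of 87 reads of replicate 1 (26.4%) and 0 of 41 of replicate 2, which allows up to 7.32% (Fisher's exact test, adjusted p = 0.114). Ensa, a phosphatase inhibitor, kept 2724 bases in 122 of 127 (96.1%) and 69 of 87 (79.3%) (Fisher's exact test, adjusted p = 0.174). With 1 library each, the test compares these libraries and covers counting error only.

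At 378 members with at least 20 reads in each library the median absolute difference was 1.54 points, and 330 (87.3%) lay within 10 points. Replicate 1 had the higher share at 144 of them and replicate 2 at 95, and the 139 without a splicing read were equal. Across the 133 introns under 50% the shares of the libraries had Pearson's r = 0.68, over introns that share libraries and are not independent. Their median was 11.0% in replicate 1 and 9.09% in replicate 2, and replicate 1 had the higher share at 71 and replicate 2 at 62. The direction differed between introns under 100 bases and longer ones. Of 39 introns under 100 bases 13 were higher in replicate 1 and 26 in replicate 2 (median difference, replicate 1 minus replicate 2, -2.19 points). Of 37 introns of 100 to under 200 bases 22 were higher in replicate 1 and 15 in replicate 2 (3.43 points), of 39 of 200 to under 500 bases 23 and 16 (3.90 points), and of 18 of at least 500 bases 13 and 5 (3.89 points). Beyond 100 bases the median difference hardly changed with length, and no test was made. The mean length of the retaining models, weighted by reads, was 2348 bases in replicate 1 and 1689 in replicate 2, and that of the splicing models 2155 and 1623. The part of this length difference in the retained shares was not tested.

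**Figure D4:**
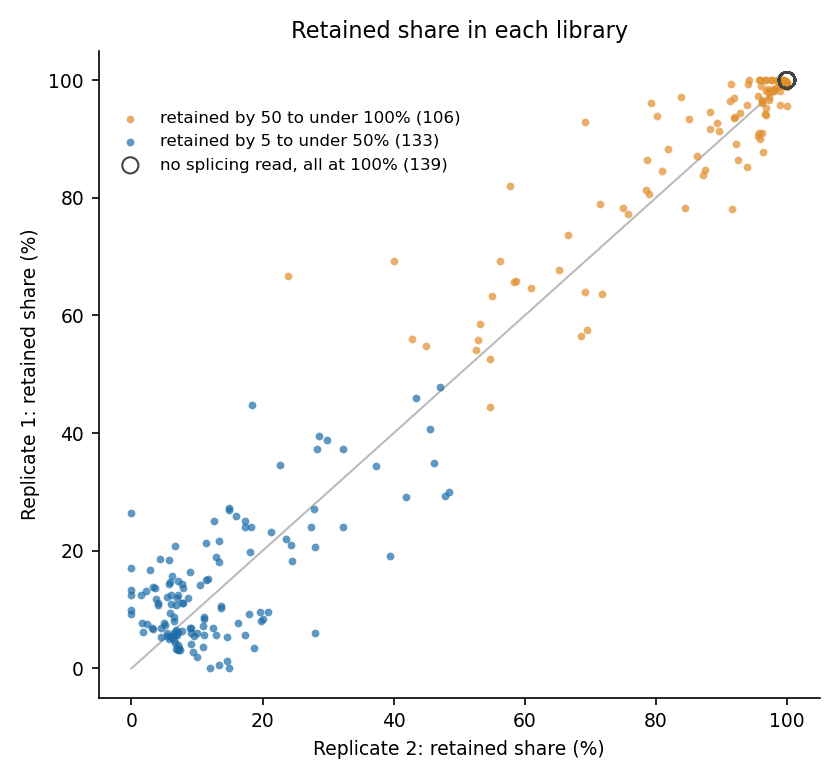
Retained share in replicate 1 (y axis, percent) against replicate 2 (x axis, percent) of the 378 introns that both libraries covered with 20 or more informative reads. Blue points are introns retained by under 50% of pooled reads, orange points those retained by more, the open circle the 139 with no splicing read, and the line marks equal shares. Points under 50% scatter widely, from -21.9 to 26.4 points of difference.

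A choice made in a single library can be read in the other. Replicate 1 alone chose 727 introns, of which 405 had at least 20 reads in replicate 2, and 339 of the 405 (83.7%) were retained by at least 5% there. Among all 3353 candidates readable in both libraries, 11.5% reached 5% in replicate 2. Of 161 introns that replicate 1 placed under 50%, 95 (59.0%) reached 5% in replicate 2 and 30 had no retaining read there, with a median of 8.70% in replicate 1 and 6.25% in replicate 2. Replicate 2 alone chose 424, of which 385 were readable in replicate 1 and 339 (88.1%) reached 5%. Of 144 that replicate 2 placed under 50%, 98 (68.1%) reached 5% in replicate 1, with a median of 7.89% in replicate 1 and 9.09% in replicate 2. In both directions the median was lower in the library that had not chosen the introns.

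Retained introns were short. The median length was 223.5 bases for the 470 under 50%, 246 for the 209 retained by most reads and 183 for the 293 never spliced, beside 269 for the 4928 tested introns under 5%. The 5249 introns of the same genes that at least 20 reads spliced and that lay inside no exon had a median of 848 bases. Since a candidate has to fit inside an exon, the short length of candidates follows from the rule, and only the comparison with other tested introns bears on retention. Of the introns under 50%, 105 (22.3%) were under 100 bases, beside 1016 (20.6%) of those under 5%.

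**Figure D5:**
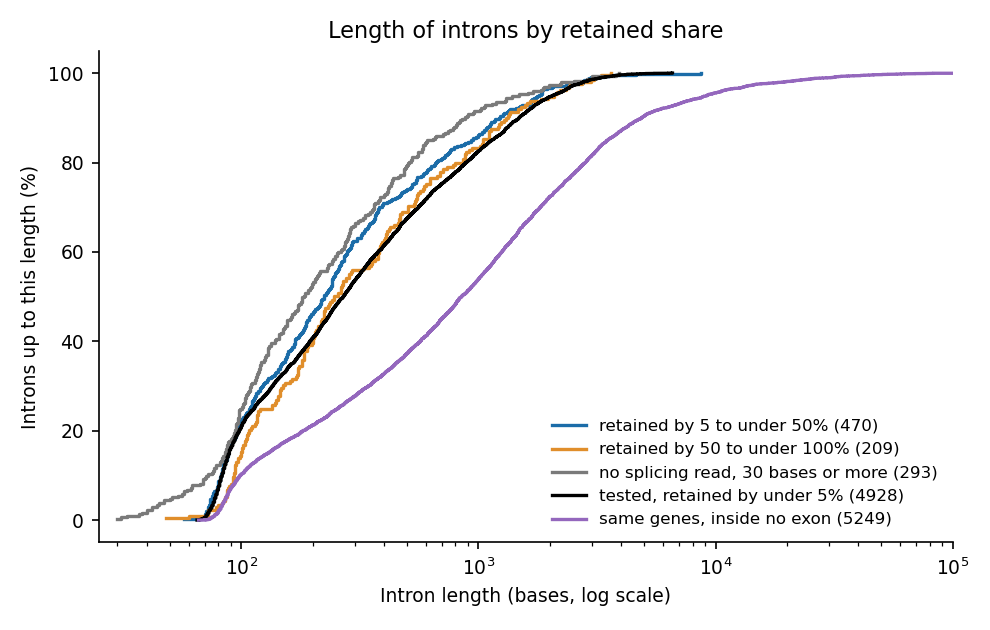
Cumulative percent of introns (y axis) up to a given length (x axis, bases, log scale) in 3 classes of retained share, in tested introns retained by under 5% of reads, and in introns of the same genes that lie inside no exon. The candidate classes run close together, with medians of 183 to 269 bases, and the introns inside no exon lie far to the right, with a median of 848.

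Base composition and splice sites differed among the classes. Where sequence could be read, the median GC content was 55.8% in 356 introns under 50%, 53.8% in 207 retained by most reads and 55.6% in 286 never spliced, beside 51.8% in 3279 tested introns under 5%. Ends of GT and AG stood in 97.2%, 95.7% and 74.1% of the 3 classes, beside 98.8% of those under 5%. Among the never spliced, 28 (9.79%) began with GC and 44 (15.4%) had neither these ends nor AT and AC. A donor that reads GTNAGT, close to the consensus, stood in 21.3%, 12.6% and 8.39% of the classes, beside 28.1% under 5%. The median share of pyrimidines in the 20 bases before the acceptor was 72.5%, 70.0% and 65.0%, beside 75.0%. No test was made, since sequence was read only where an annotated exon covers the intron, which holds for 356 of the 470 and depends on how the intron is retained.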

How the data were processed

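Long-read RNA sequencing of gastrocnemius was analysed in 2 libraries of a single group. Per the file headers and the notes beside the files, the authors deposited for each library the raw counts of reads in every transcript model, with the models' exons on mm10 and GENCODE M21. The attributes name TALON. The sources used here name neither its version nor the aligner. Counts were not normalized. Exon coordinates, a value of another kind, were taken as deposited, counted from 1.

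Splicing reads are those of Known, NIC and NNC models (annotated chains, unannotated chains of known sites, and chains with another site) that hold exactly the intron. Retaining reads are those of such models, with at least 1 intron of their own, whose exon holds it. Models with part of a chain (ISM), Genomic and single-exon models were left out. Libraries were compared by Fisher's exact test (scipy 1.17.1, statsmodels 0.14.6 for adjustment). In simulated counts, 200 of 200 introns with 30 points added were called among 5920, with 0 false calls. The 200 came only from introns that both libraries covered with 50 or more informative reads, and none was retained by most reads. The recovery therefore holds for well-covered introns only, and smaller differences were not simulated. The introns retained by under 50% of reads had a median of 37 pooled informative reads. The simulation therefore does not show what share of differences would be called at introns with so few reads, and the 0 calls do not show that the libraries are equal there. Frame and sequence came from GENCODE M21 transcripts for 869 of 992 introns. Named introns follow a rule: the 15 with the most retaining reads, the 10 with the highest share, up to 5 per gene list, those nearest 5%, U12-type ones, the 5 shortest and 3 longest. A few introns of this rule are not reported here. Others (sequences shown, introns ranked within a class, genes with several introns, library differences) were chosen after their values were seen. The members and all lists were chosen with earlier results of these data known. Wilson intervals, Fisher tests and limits from a count of 0 cover counting error only.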

Additional observations from a re-analysis of the deposited data

Results flagged for a closer look

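Reads outside the models used also held the 992 introns, above the 3 reads that a count of 0 allows. Incomplete splice matches that hold a member gave 2184 reads in replicate 1 and 1695 in replicate 2. Genomic models, which overlap a gene without its splicing, gave 521 and 424 reads, the most at Igfbp5, with 107 reads in replicate 1 and 60 in replicate 2. Annotated transcripts of a single exon gave 90 and 167 reads. Each model was counted once per library, and these reads entered no share given here.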

How the results depend on the processing

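The count of 992 introns was most sensitive to its limits. It was 347 with internal retaining exons only, 655 with retaining models of the class Known only, 1825 with at least 10 and 429 with at least 50 informative reads, and 1892 at a limit of 2%. Leaving out a library gave 424 (without replicate 1) to 727 (without replicate 2). Under the other alternatives it stayed between 720 (single-read models left out) and 1234 (single-exon and Genomic models added), with 904 when reads that splice another overlapping intron were added to the denominator, an alternative added after seeing the data. The count of introns that differ between the libraries, 0, was also 0 with internal exons only. It was 1 by adjusted p alone (Acta1, 97 of 84286 and 9 of 75014 reads), 1 by a chi-square test (Lmna), 2 without single-read models and 2 with at least 20 reads in each library (the Lmna introns each time), and 9 with incomplete splice matches, among them Tmem52, Ddx5, Fermt2, both Lmna introns and Rpl3l (0.222% in replicate 1 and 20.6% in replicate 2). The 339 introns retained by 5% in both libraries were 70 with internal exons only, where the median length of the members was 182 bases, against 211. Of 408 values of named introns under alternatives, 358 were counted as moving by no more than the spread between the libraries. That spread was narrower than the plain difference. Ddx5, at 20.9% and 6.67% in the libraries, counted as moved from 16.9% to 6.67% without replicate 1. Fn1, with no informative read in replicate 2, counted as moved though its share stayed at 100%. Many named introns had no splicing read, so their share stayed at 100%. Leaving out a library only returns the share of the other. The 358 are therefore no measure of robustness. Of the 72 named introns, 49 had a value from internal exons alone. Of these 49, 27 stayed at 5% or more and 22 had no internal retaining read. The rest of the 72 had no informative read left in this setting, so they too had no internal retaining read. No paired analysis was possible because there is 1 group. At 20 reads a share of 5% rests on 1 read, and the cause of each shift was not tested.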
